A study of Caenorhabditis elegans with 16 samples.

Results

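The libraries described here are the 8 standard, unheated poly(A) RNA-seq libraries of whole Caenorhabditis elegans worms labelled L4, out of 16 libraries in the series, split into 2 sets by the endings of their titles. The deep set holds 3 libraries, N2 (ending 30_8), BB4 (4_9) and BB21 (20_9), with 31584576, 30011732 and 35693369 reads. The shallow set holds 5 libraries, N2 12_7, N2 28_6, BB4 28_6, BB4 12_7 and BB21 12_7, with 7809971, 7856224, 8209574, 7697788 and 9624995 reads. The median depth of the deep set was 4.02 times that of the shallow set, and the names deep and shallow are given here for that difference only. N2 is the wild type, and BB4 and BB21 each carry mutations in adr-1 and in adr-2, the worm's ADAR genes, which encode proteins of the editing of adenosine to inosine in double-stranded RNA. The alleles of BB4 are gv6 in adr-1 and gv42 in adr-2, and those of BB21 are tm668 in adr-1 and ok735 in adr-2. All worms were synchronized from L1 larvae and grown at 20 °C on OP50 bacteria, and each library is labelled as a biological replicate of its own. What the title endings stand for is not given in the labels. The study's methods name a pair of RNA extraction kits without saying which library had which, whereas the labels name Direct-Zol for all 16 libraries, so that depth, preparation, culture and the exact age of the worms cannot be told apart between the sets.

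Before adulthood the worm passes through 4 larval stages, each closed by a molt in which the epidermis makes a new collagen cuticle and sheds the old one. Transcripts for cuticle collagens, for the enzymes that process them and for many hedgehog-related proteins rise and fall with each molt, so that cultures a few hours apart can differ in them. During L4 the hermaphrodite germ line makes sperm and then turns to oocytes, the vulva and uterus form, and after the last molt the intestine makes yolk. Small RNAs and other short noncoding RNAs mostly lack a poly(A) tail, and their reads in a poly(A) library are few.

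The sets parted on a large share of the transcriptome. In a principal component analysis of log2(normalized count + 1) the first component held 72.6% of the variance and separated every deep library from every shallow library, whereas the second held 9.91%. Pearson correlations between pairs of libraries, across features and given as a description, were 0.983 to 0.985 within the deep set, 0.954 to 0.977 within the shallow set and 0.833 to 0.900 between the sets. A normalized count is the read count scaled by 1 factor per library, and a feature is 1 transcript of the deposited table, so that a gene can have several. Of 23280 features with a mean normalized count of at least 1, 7994 (34.3%) were higher and 6567 (28.2%) lower in deep than in shallow libraries at an adjusted p under 0.05 by limma with genotype as a covariate. With a log2 fold above 2 or below -2 as well, 2769 (11.9%) were higher and 170 (0.730%) lower. The 3 deep values lay above all 5 shallow values for 30.8% of features and below all of them for 25.8%. The median log2 fold over all features tested was 0.15. Quantile normalization shifted that median to -0.24 and turned the split of calls to 6313 higher and 8702 lower, and list directions that it turned are named below. With 1 feature per gene the median was 0.029, with 5356 higher and 5682 lower.

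Within the shallow set, no feature passed between the 3 libraries ending 12_7 and the 2 ending 28_6 at an adjusted p under 0.05 by limma or by edgeR, with 1184 features at an unadjusted limma p under 0.05. No feature passed the limma interaction test of the set difference between ADAR mutants and N2 either, with 625 features at an unadjusted p under 0.05 and only 1 deep N2 library behind it. The heat-shocked libraries of the same 2 sets, which were kept at 34 °C for 75 min and left to recover for 20 min at room temperature and 3 h at 20 °C, also parted: 6687 of 24896 features (26.9%) were higher and 5376 (21.6%) lower in the 3 deep than in the 5 shallow ones by limma. Without the deep heat-shocked N2 library these counts were 4379 and 3238. The deep heat-shocked BB4 library ends in 5_9, not in 4_9. Heated worms can come from the same cultures as the standard ones, so that this comparison is not an independent repeat. As a check of the strain labels, adr-2, mutated in BB4 and BB21, had 1442, 593 and 149 normalized counts in the deep N2, BB4 and BB21 libraries, against 1338, 1429, 281, 284 and 139.6 in the shallow libraries in the order given above. In both sets N2 held the highest adr-2 values.

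The difference between the sets followed transcript length. Lengths came from the WBcel235 annotation, which is not the WS220 transcript set the reads were aligned to, and 21052 of 21283 protein-coding features tested (98.9%) had a coding length. The median log2 fold was -1.01 for the 3545 features with up to 500 nt of coding sequence, -0.35 for those of 500 to 1000 nt, 0.21 for 1000 to 1500 nt, 0.63 for 1500 to 2000 nt, 1.06 for 2000 to 3000 nt, 1.51 for 3000 to 5000 nt and 2.38 for the 425 features above 5000 nt. In the shortest class 7.90% were higher and 61.3% lower in deep libraries, and in the longest class 97.9% were higher and 0.471% lower. Spearman's rho across features between log2 fold and length was 0.61 for coding length and 0.32 for 3′UTR length, given as a description, since features are not independent replicates. Among features with a mean normalized count of at least 100 the class medians ran from -1.39 to 2.35, and with 1 feature per gene from -1.04 to 1.99, in the same order of classes. The heat-shocked libraries gave medians of -1.32 in the shortest and 2.71 in the longest class.

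**Figure D1:**
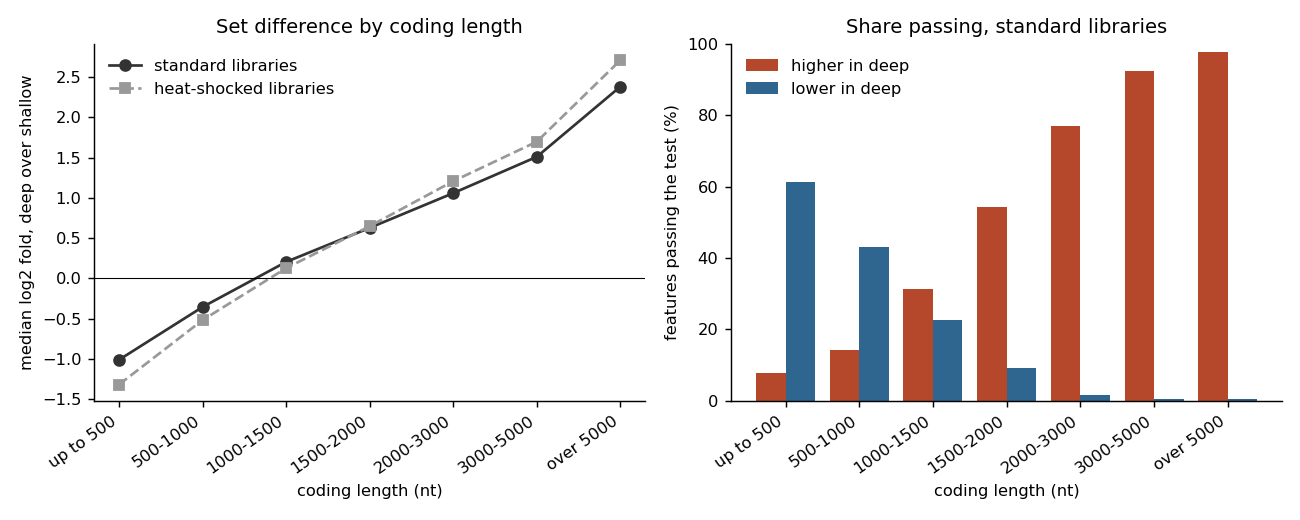
Left, median log2 fold of deep over shallow libraries (y axis) of protein-coding features in 7 classes of coding length (x axis, nt), for standard and heat-shocked libraries. Right, percent of features in each class that passed limma at an adjusted p under 0.05 as higher or lower in the deep standard libraries. The median climbs with each class, from -1.01 to 2.38 in standard libraries.

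Within classes of coding length, features with a 3′UTR above 400 nt had higher medians than those with up to 200 nt. Over all coding lengths the order was not steady among short 3′UTRs. The median was 0.04 for the 5099 features of up to 50 nt, -0.36 for 50 to 100 nt and -0.13 for 100 to 200 nt. A feature without an annotated 3′UTR counts as 0 nt, here and in the length adjustment. With up to 1000 nt of coding sequence, the median log2 fold was -0.76 for 7250 features with a 3′UTR of up to 200 nt and 0.71 for 805 features with a 3′UTR above 400 nt. With more than 2000 nt of coding sequence the same 3′UTR classes had medians of 0.93 (1796 features) and 2.28 (879 features). In terms of reads on protein-coding features, those with over 5000 nt of coding sequence took 6.66%, 5.24% and 7.83% in the deep N2, BB4 and BB21 libraries, against 1.24%, 1.41%, 1.53%, 1.60% and 2.01% in the shallow libraries N2 12_7, N2 28_6, BB4 28_6, BB4 12_7 and BB21 12_7. Features of up to 500 nt took 7.80%, 8.52% and 6.99% in the deep libraries, against 18.5%, 19.3%, 18.3%, 18.5% and 17.3% in the shallow libraries, and neither pair of ranges overlapped. Because every family below has lengths of its own, the lists are also given after an adjustment chosen after these values were seen, in which the part of each library's deviation that follows coding and 3′UTR length was removed. That part was 35.4% of the variance of the deviations. After it 3418 of 21052 features (16.2%) were higher and 7953 (37.8%) lower by limma, with a median log2 fold of -0.20.

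Genes of the same tissue went opposite ways. In whole worms, fewer cells of a type and less RNA per cell cannot be told apart, which holds for every tissue below. In body wall muscle, unc-54, the major myosin heavy chain with 5889 nt of coding sequence, had 33437, 22848 and 31426 normalized counts in deep libraries, against 8395, 10008, 10418, 11131 and 13379 in shallow libraries (log2 fold 1.45, SE 0.17, adjusted p = 3.17e-05). pat-10, the body wall troponin C with 483 nt, had 14672, 11164 and 12285 in deep libraries, against 37707, 39268, 34366, 35154 and 33719 in shallow libraries (log2 fold -1.50, SE 0.10, adjusted p = 8.61e-07). The sets did not overlap for either gene, and the genes moved against each other by nearly the same size. unc-22, which encodes the giant protein twitchin in 20517 nt, had 11821, 6791 and 13567 in deep libraries, against 161, 364, 414, 420.1 and 636 in shallow libraries (log2 fold 4.78, SE 0.35, adjusted p = 1.69e-06), the widest gap among the muscle genes named here. Of 63 features of 25 body wall muscle genes, 34 were higher and 13 lower, with a median of 1.27 that turned to -0.46 after the length adjustment (10 higher and 32 lower). In the pharynx, myo-2, its myosin heavy chain (5841 nt), had 3367, 2083 and 4113 in deep libraries, against 670.1, 840.5, 1242, 1518 and 1541 in shallow libraries (log2 fold 1.44, SE 0.26, adjusted p = 0.000697). tnc-2, the pharyngeal troponin C (480 nt), had 348, 336 and 312 in deep libraries, against 732, 833, 831, 879.6 and 684 in shallow libraries (log2 fold -1.25, SE 0.11, adjusted p = 6.23e-06). Both genes separated the sets without overlap, in opposite directions.

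Neurons showed the same split. rab-3, a GTPase of synaptic vesicles with a short coding sequence (657 nt) but 552 nt of 3′UTR, had 247, 261 and 240.5 normalized counts in deep libraries, against 74.9, 44.4, 67.4, 78.8 and 72.5 in shallow libraries (log2 fold 1.88, SE 0.20, adjusted p = 1.62e-05). flp-1, which encodes FMRFamide-like peptides (525 nt, 3′UTR 145 nt), had 202, 227 and 206 in deep libraries, against 438, 474, 481, 501 and 464 in shallow libraries (log2 fold -1.16, SE 0.10, adjusted p = 5.28e-06). Again neither gene overlapped between the sets. Of 103 neuropeptide features, 68 were lower and 3 higher in deep libraries, with a median log2 fold of -0.87 and a median coding length of 314 nt. After the length adjustment the median was -0.12, with 26 lower and 8 higher of 102, beside 37.8% lower and 16.2% higher over all features.

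**Figure D2:**
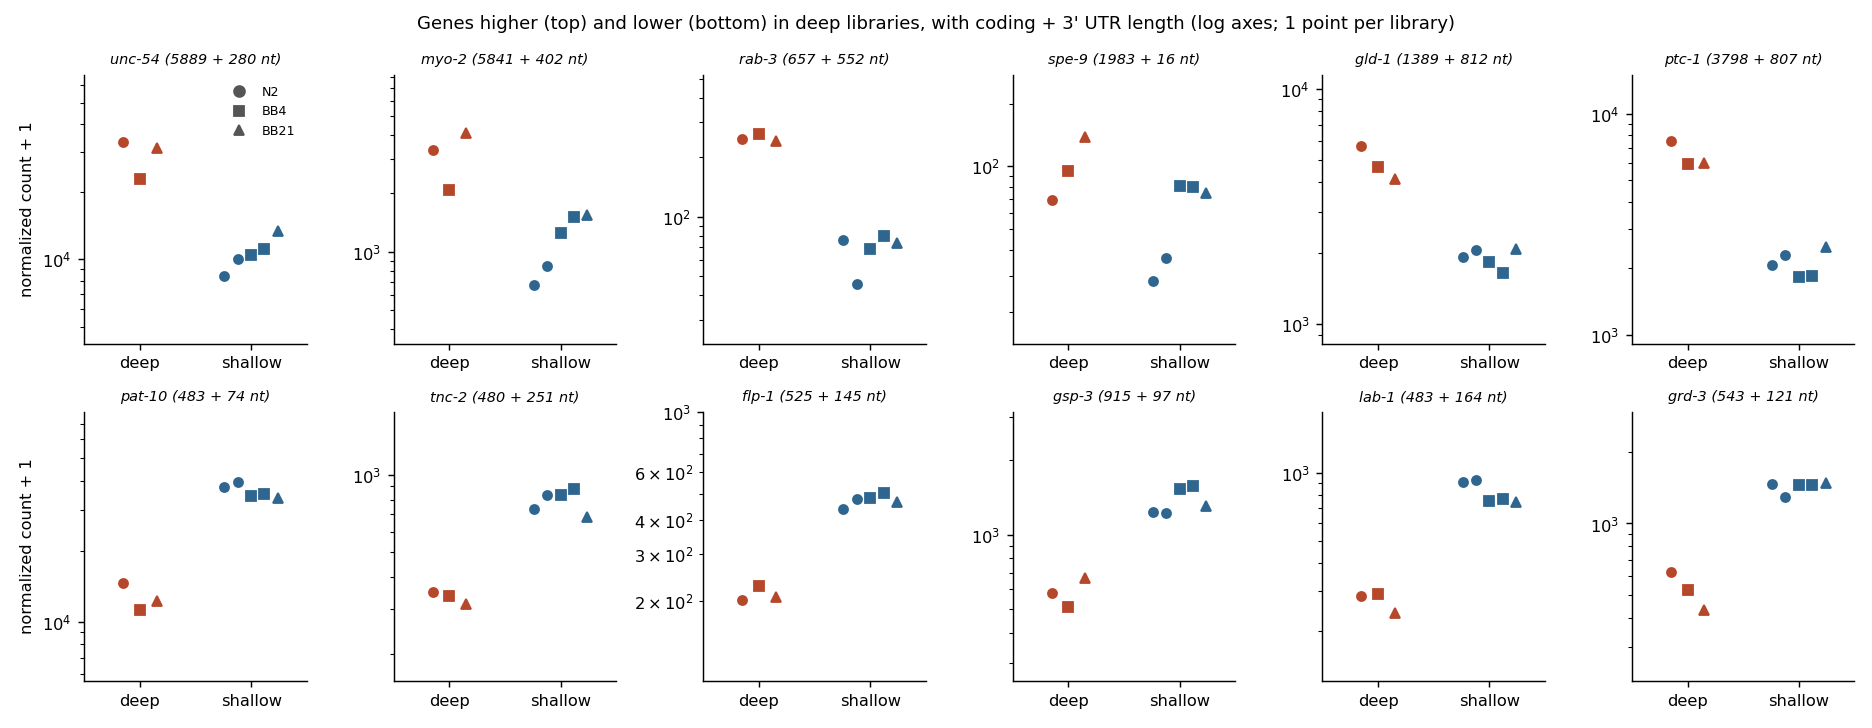
Normalized count + 1 (log y axes) of 12 genes in each of the 3 deep and 5 shallow standard libraries (x axis). Each point is 1 library, its shape the strain, and the title of each panel gives coding + 3′UTR length. The genes in the upper row averaged higher and those in the lower row lower in deep libraries; only spe-9 has overlapping sets.

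Among molt-cycle families, those with long messages were higher in deep libraries and the cuticle collagens were mostly not. Of 51 features of molting enzymes and regulators, from 28 genes, 45 were higher and none lower by limma, with a median log2 fold of 1.97. bli-4, a proprotein convertase needed to process cuticle collagens, had 4113, 3498 and 3723 normalized counts in deep libraries, against 1556, 1533, 1638, 1485 and 1592 in shallow libraries (log2 fold 1.28, SE 0.09, adjusted p = 1.15e-06). mlt-7, a peroxidase that acts on the new cuticle, had 1051, 1167 and 1361 in deep libraries, against 431, 416, 484, 441 and 579.7 in shallow libraries (log2 fold 1.33, SE 0.11, adjusted p = 4.08e-06). Both were higher in every deep than in every shallow library. On the length-adjusted scale the list had 22 higher and 6 lower of 51, with a median of 0.58, and bli-4 stood at 0.70 (adjusted p = 3.70e-05), while mlt-7 stood at -0.03 (adjusted p = 0.806).

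Cuticlins and other ZP-domain proteins of the apical matrix had 28 of 53 features higher and none lower, with a median of 1.13 and, after the length adjustment, 0.53 (13 higher, 1 lower). let-653, a matrix protein of the excretory duct and vulva, had 294, 222 and 183 normalized counts in deep libraries, against 71.2, 69.3, 80.0, 62.4 and 98 in shallow libraries (log2 fold 1.60, SE 0.21, adjusted p = 8.14e-05). cut-4, a cuticlin-like gene, had 135, 138 and 266 in deep libraries, against 12.8, 16, 58, 70.6 and 37.6 in shallow libraries (log2 fold 2.29, SE 0.35, adjusted p = 0.000214). Neither gene overlapped between the sets. Astacin metalloproteases, some of which open the old cuticle, split with 19 higher and 2 lower of 40. nas-39 had 232, 224 and 244 in deep libraries, against 20.1, 58.6, 51.7, 32.8 and 47 in shallow libraries (log2 fold 2.52, SE 0.32, adjusted p = 5.93e-05), and nas-20 had 489, 440.4 and 461 in deep libraries, against 1185, 1052, 746, 839 and 667 in shallow libraries (log2 fold -0.89, SE 0.13, adjusted p = 0.000124). These 2 astacins separated the sets in opposite directions.

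Patched-related proteins, relatives of the hedgehog receptor, were higher in 33 of 35 features and lower in none, with a median of 1.80 and a median coding length of 2715 nt. ptc-1, a Patched gene with a known role in the germ line, had 7539, 5961 and 6006 normalized counts in deep libraries, against 2069, 2306, 1823, 1836 and 2492 in shallow libraries (log2 fold 1.64, SE 0.12, adjusted p = 1.76e-06). Adjusted for length, ptc-1 was lower, at -1.23 (adjusted p = 3.87e-06), and the list had 11 higher and 5 lower of 33. ptr-13 had 600.5, 532 and 589 in deep libraries, against 32.9, 19.5, 31.4, 26.3 and 34.9 in shallow libraries (log2 fold 4.28, SE 0.22, adjusted p = 3.88e-07) and stayed higher after the adjustment (1.81, adjusted p = 2.38e-05). The hedgehog-related proteins themselves are short, with a median of 852 nt. Of 57 hedgehog-related features 15 were higher and 13 lower, beside 34.3% higher and 28.2% lower over all features. Their median of 0.50 turned to -0.18 under quantile normalization. grd-3 had 624, 521 and 432 in deep libraries, against 1468, 1295, 1455, 1457 and 1479 in shallow libraries (log2 fold -1.45, SE 0.12, adjusted p = 3.44e-06), and grd-5 had 444, 436 and 305 in deep libraries, against 988, 1068, 869, 862 and 955 in shallow libraries (log2 fold -1.26, SE 0.12, adjusted p = 1.02e-05). Both groundhog genes were lower in every deep library.

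Collagens of the col family had 10 features higher and 59 lower of 158, beside 34.3% higher and 28.2% lower over all features, with a median of -0.30. Among the abundant members, col-124 had 17989, 16507 and 10987 normalized counts in deep libraries, against 27752, 26965, 21539.8, 22992 and 25868 in shallow libraries (log2 fold -0.73, SE 0.14, adjusted p = 0.00107). col-140 had 5530.2, 4013 and 4099.6 in deep libraries, against 14055, 12168, 9794, 10498 and 12722 in shallow libraries (log2 fold -1.36, SE 0.11, adjusted p = 3.08e-06). col-19, the collagen that marks the adult cuticle, had 5325, 4829 and 3132 in deep libraries, against 9051, 8387, 7500.3, 7773 and 9116 in shallow libraries (log2 fold -0.93, SE 0.15, adjusted p = 0.000292). All 3 were lower in every deep than in every shallow library. col-19 was thus abundant in all 8 libraries of worms labelled L4. With the length adjustment the col list had 17 higher and 55 lower of 155, beside 16.2% higher and 37.8% lower over all features. On that scale col-19 remained lower (-0.64, limma, adjusted p = 0.00188).

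Most collagens that shape the body did not pass, with 0 higher and 1 lower of 7 furrow collagens and 1 higher and 1 lower of 16 other body-shape collagens by limma. ram-2, the body-shape collagen that passed as lower, had 383, 509.8 and 757 normalized counts in deep libraries, against 652, 679, 1402, 986 and 1019 in shallow libraries (log2 fold -0.83, SE 0.16, adjusted p = 0.000907). dpy-8, the furrow collagen that passed as lower, had 54.4, 69 and 119 in deep libraries, against 109.5, 146, 213, 138 and 95.3 in shallow libraries (log2 fold -0.84, SE 0.29, adjusted p = 0.029). Both genes overlapped between the sets, and the call of dpy-8 was lost without deep N2, deep BB4, N2 28_6 or BB4 28_6 (limma, adjusted p = 0.0669 to 0.185), against the 12_7 libraries alone (0.145) and in the fit of all 16 libraries (0.0678). Among those that did not pass, sqt-1 had 327, 667 and 822 normalized counts in deep libraries, against 38.3, 362, 1464, 669.5 and 739 in shallow libraries, and rol-6 had 49.5, 175 and 175 in deep libraries, against 9.13, 67.5, 287, 91.9 and 107 in shallow libraries. dpy-7, a furrow collagen of the epidermis, had 45.1, 119 and 109 in deep libraries, against 25.6, 33.8, 124, 37.7 and 33.5 in shallow libraries. All 3 ranges overlapped and none of these genes passed (limma, adjusted p = 0.664, 0.444 and 0.0725). N2 12_7 held the lowest value of each of the 3 genes, and BB4 28_6 the highest value of each. Without BB4 28_6, dpy-7 was higher in deep libraries at a log2 fold of 1.23 (adjusted p = 0.00455), and sqt-1 turned to -0.24 without N2 12_7 (adjusted p = 0.440) and to -0.28 without the deep N2 library (adjusted p = 0.788). Against the 12_7 libraries alone rol-6 was higher in deep libraries (log2 fold 1.31, adjusted p = 0.0103), and against the 28_6 libraries alone it was lower (-0.59, adjusted p = 0.0340), as was sqt-1 (-0.63, adjusted p = 0.0350). The median SD of log2 values among the shallow libraries was 1.50 for the 16 other body-shape collagens and 1.59 for the 10 abu and pharyngeal cuticle genes, against 0.33 over all features. Among the deep libraries it was 0.81 and 1.15, against 0.22 over all features.

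bli-1, a collagen of the struts of the adult cuticle with a long message (2844 nt), was the body-shape collagen that passed as higher. It had 63.6, 120.3 and 219 normalized counts in deep libraries, against 3.65, 17.8, 47, 21.3 and 29.5 in shallow libraries (log2 fold 2.51, SE 0.46, adjusted p = 0.000773), with no overlap. The abu genes, which encode repetitive proteins of the pharyngeal cuticle, had 9 of 10 features higher and none lower, although none of the 10 separated the sets without overlap. Their median log2 fold was 1.72, and their median coding length 1174.5 nt, against 1080 nt over all protein-coding features. After the length adjustment 6 of the 10 were higher and none lower, with a median of 1.21. abu-1 had 130.2, 337 and 537 in deep libraries, against 21.9, 26.7, 212, 200.2 and 118 in shallow libraries (log2 fold 1.69, SE 0.29, adjusted p = 0.000454). In both sets N2 was below the ADAR mutants for abu-1, and without the genotype covariate its limma adjusted p was 0.0581. wrt-10, a hedgehog-related gene of the epidermis, had 26.7, 63.1 and 61.5 in deep libraries, against 3.65, 12.4, 78.4, 29.5 and 20.1 in shallow libraries, and did not pass (adjusted p = 0.0689), but was higher without BB4 28_6 (log2 fold 1.51, adjusted p = 0.00976). Of the 4 epidermis markers, dpy-7, col-10, wrt-10 and rol-6, none was higher by limma with all libraries in, and 1, col-10, was lower. The markers summed to 869 to 1629 in deep libraries, against 1134 to 2976 in shallow libraries, ranges that overlap.

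**Figure D3:**
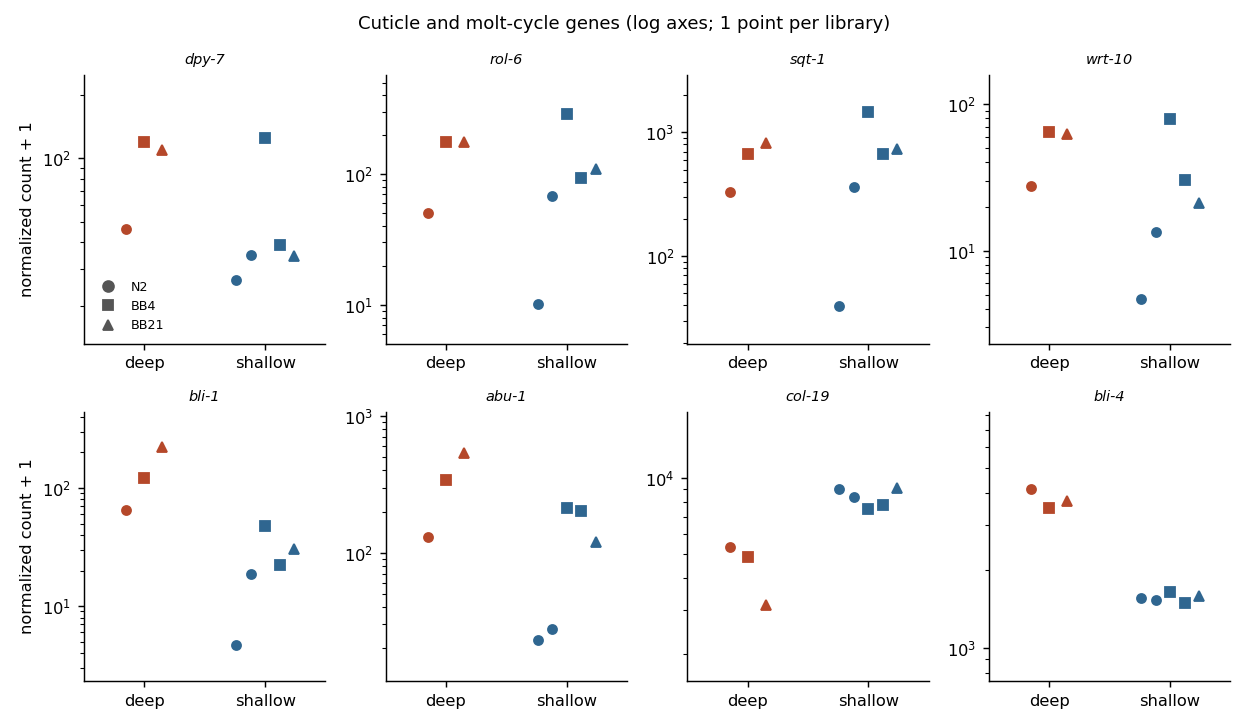
Normalized count + 1 (log y axes) of 8 cuticle and molt-cycle genes in the 3 deep and 5 shallow standard libraries (x axis), 1 point per library with the strain as its shape. The values of dpy-7, rol-6, sqt-1, wrt-10 and abu-1 spread within each set and overlap between the sets, whereas bli-1 and bli-4 are higher and col-19 lower in every deep library.

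Heterochronic genes, which time the larval stages, had the highest median of all 43 lists, 4.18, with 24 of 25 features higher and none lower. The list held 26 features of only 13 genes, and features of the same gene are not independent of each other. They also had the longest 3′UTRs of the 43 lists, with a median of 874 nt against 122 nt over all protein-coding features. lin-41, a TRIM-NHL protein that is a target of the let-7 microRNA and also acts in oocytes, had 4698, 3389 and 3799 normalized counts in deep libraries, against 104, 124, 81.5, 67.3 and 145 in shallow libraries (log2 fold 5.29, SE 0.22, adjusted p = 2.68e-07). lin-14, a nuclear protein of early larvae that the lin-4 microRNA represses, had 262, 289 and 367 in deep libraries, against 1.83, 0, 3.14, 1.64 and 0 in shallow libraries (log2 fold 7.23, SE 0.51, adjusted p = 1.42e-06), with 1583 nt of 3′UTR. alg-2, a microRNA Argonaute, had 1336, 900.1 and 1296 in deep libraries, against 43.8, 81.7, 81.5, 45.9 and 183 in shallow libraries (log2 fold 3.90, SE 0.41, adjusted p = 1.43e-05). The sets lay far apart for all 3. Adjusted for length, 14 were higher and 4 lower of 25, with lin-41 at 2.13 (adjusted p = 1.04e-06). lin-66 went the other way there, at -1.08 (adjusted p = 9.88e-05), from 1255, 993 and 1139 in deep libraries, against 155, 204, 146, 149 and 323 in shallow libraries (log2 fold 2.59, SE 0.25, adjusted p = 9.19e-06 without the adjustment).

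Vulva and uterus genes, which act in the making of these organs, were higher in 24 of 29 features (18 genes) and lower in 3, with a median of 2.33. lin-3, the EGF-like signal that induces the vulva, had 1114, 1033 and 876 normalized counts in deep libraries, against 447, 396, 375, 349.5 and 432 in shallow libraries (log2 fold 1.34, SE 0.11, adjusted p = 3.74e-06). let-23, its receptor, had 394, 389 and 451 in deep libraries, against 56.6, 51.5, 62.7, 87 and 79.2 in shallow libraries (log2 fold 2.59, SE 0.17, adjusted p = 1.01e-06). Both separated the sets. With the length adjustment let-23 remained higher (0.78, adjusted p = 0.00187), and lin-3 stood at 0.22 (adjusted p = 0.0903).

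In the germ line, sperm genes were lower in deep libraries. All 35 major sperm protein features, which encode the motility protein of nematode sperm, were lower by limma, and every one was lower in each deep than in each shallow library. Their summed normalized counts were 34360.2, 32059 and 28193 in the deep libraries, against 88923, 92316, 100484, 100326 and 84535 in the shallow libraries. msp-113, the most abundant, had 2979, 2811 and 2478 in deep libraries, against 7639, 7847, 8673, 8822 and 7637 in shallow libraries (log2 fold -1.56, SE 0.10, adjusted p = 8.88e-07). These genes are near-identical copies, and reads that align to several were counted for each, so that their values are not independent of each other. They are also short, with a median coding length of 381 nt and a median annotated 3′UTR of 0 nt, and the adjustment took these lengths as they stood. After it all 31 with a coding length were lower (median -1.27), as against 37.8% over all features. Whether length accounts for the difference was not tested.

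Other sperm genes had 30 of 52 features lower and 11 higher, with a median of -0.81. ssp-10, a sperm-specific protein, had 551, 467 and 528 normalized counts in deep libraries, against 2050.4, 2199.8, 2146, 2302 and 1919 in shallow libraries (log2 fold -2.04, SE 0.10, adjusted p = 3.36e-07). gsp-3, a protein phosphatase of sperm, had 579, 509 and 667 in deep libraries, against 1236, 1228, 1536, 1572 and 1304 in shallow libraries (log2 fold -1.24, SE 0.12, adjusted p = 8.33e-06), and gsp-4, its close copy, had 1281, 1145 and 1278 in deep libraries, against 2297, 2484, 2820.4, 2839 and 2606 in shallow libraries (log2 fold -1.08, SE 0.10, adjusted p = 5.00e-06). Every deep value of these genes lay below every shallow value. spe-9, a surface protein that sperm need to fertilize, with 1983 nt, had 67.9, 94.6 and 137 in deep libraries, against 27.4, 35.5, 80.0, 78.8 and 73.8 in shallow libraries (log2 fold 0.74, SE 0.22, adjusted p = 0.0131). Its sets overlapped, and its call was lost without the deep N2 library (adjusted p = 0.116) and without the deep BB21 library (0.0648). The call of spe-9 was also lost under quantile normalization (limma, adjusted p = 0.361), without the genotype covariate (0.0989) and against the 28_6 libraries alone (0.0590). Adjusted for length, 27 of 51 other sperm features were lower and 3 higher.

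Oocyte and early germ cell genes went both ways. Of 36 oocyte and early embryo features 15 were higher and 13 lower, beside 34.3% higher and 28.2% lower over all features. rme-2, the yolk receptor of oocytes, had 6040.4, 4352 and 4651 normalized counts in deep libraries, against 8609, 7519.9, 6315, 6344 and 6381 in shallow libraries (log2 fold -0.47, SE 0.09, adjusted p = 0.000796). puf-5, an RNA-binding repressor in oocytes, had 2329, 1798 and 1754 in deep libraries, against 2903, 3517, 2538, 2133 and 2942 in shallow libraries (log2 fold -0.49, SE 0.12, adjusted p = 0.00427). oma-1, needed for oocyte maturation, had 2742, 2320.3 and 1989 in deep libraries, against 1327, 1734, 1373, 1154 and 1859.9 in shallow libraries (log2 fold 0.68, SE 0.16, adjusted p = 0.00394). rme-2 was lower and oma-1 higher in every deep library, while puf-5 overlapped between the sets. cbd-1, an eggshell protein, had 11109, 7272 and 8104 in deep libraries, against 6805, 7329.8, 5845, 5722 and 7467 in shallow libraries (log2 fold 0.42, SE 0.12, adjusted p = 0.0131), and did not pass without the deep N2 library (adjusted p = 0.128). mbk-2, a kinase of the oocyte-to-embryo transition, had 4412, 3183 and 3519 in deep libraries, against 296, 323, 238, 185 and 601 in shallow libraries (log2 fold 3.61, SE 0.31, adjusted p = 4.26e-06). Of these 5 genes, mbk-2 had the widest gap, and rme-2, puf-5 and cbd-1 did not pass in a fit of all 16 libraries (limma, adjusted p = 0.121, 0.278 and 0.0644). The call of cbd-1 was also lost without the genotype covariate (limma, adjusted p = 0.0524) and against the 12_7 libraries alone (0.0703). The call of rme-2 was also lost under quantile normalization (log2 fold -0.025, limma, adjusted p = 0.811) and against the 28_6 libraries alone (-0.41, limma, adjusted p = 0.0582).

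Germ granule and germ cell genes were higher in 21 of 32 features and lower in 3, with a median of 0.78. pgl-1, a core protein of P granules, had 5029.6, 4047 and 3924 normalized counts in deep libraries, against 5483, 4593, 4536, 4489.8 and 4509 in shallow libraries, and did not pass (log2 fold -0.11, limma, adjusted p = 0.305). glh-1, a helicase of the same granules, had 3023, 2391 and 2282 in deep libraries, against 3399.7, 3174, 2645, 2606 and 2688 in shallow libraries (log2 fold -0.16, limma, adjusted p = 0.104), and passed only by DESeq2 (-0.19, adjusted p = 0.0386) among the tools run. These 2 markers of germ cells overlapped between the sets. gld-1, a translational repressor with 812 nt of 3′UTR, had 5732, 4669 and 4146 in deep libraries, against 1921, 2074, 1833, 1657 and 2092 in shallow libraries (log2 fold 1.35, SE 0.11, adjusted p = 2.75e-06). gld-2, a cytoplasmic poly(A) polymerase with 1110 nt of 3′UTR, had 2318, 1771 and 2035 in deep libraries, against 385, 466, 381, 379 and 538 in shallow libraries (log2 fold 2.26, SE 0.14, adjusted p = 8.85e-07). Both separated the sets. With the length adjustment the list turned to 6 higher and 23 lower, with a median of -0.78, and pgl-1, glh-1, gld-1 and gld-2 were each lower, at -0.87, -0.80, -0.99 and -0.85 (limma, adjusted p at most 1.77e-05).

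Meiotic chromosome genes had 11 higher and 12 lower of 41, and DNA replication genes 7 higher and 15 lower of 35, beside 34.3% higher and 28.2% lower over all features. him-1, a cohesin subunit of 3786 nt, had 4073, 3181 and 3714 normalized counts in deep libraries, against 1123, 1038, 1003, 939 and 1424 in shallow libraries (log2 fold 1.74, SE 0.14, adjusted p = 3.27e-06). lab-1, a protein of meiotic chromosomes of 483 nt, had 284, 291 and 239 in deep libraries, against 907, 931, 751, 769.6 and 741 in shallow libraries (log2 fold -1.58, SE 0.10, adjusted p = 9.62e-07). rpa-2, a subunit of the single-strand DNA binding complex of replication, had 2585, 2281 and 1933 in deep libraries, against 6721, 6255, 5465, 5446 and 4681 in shallow libraries (log2 fold -1.31, SE 0.10, adjusted p = 1.74e-06). None of these 3 overlapped between the sets. After the length adjustment 32 of 41 meiotic features were lower and 1 higher, and 27 of 34 replication features were lower and 3 higher, with medians of -0.62 and -0.68. On the same length-adjusted scale the oocyte and early embryo features had 27 lower and 4 higher of 36, and 37.8% of all features were lower and 16.2% higher.

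Yolk protein genes were higher in deep libraries in all 9 features of the 6 vitellogenin genes, with a median of 1.02 and a median coding length of 4839 nt. vit-6 had 36889.6, 20590.3 and 24264 normalized counts in deep libraries, against 12494, 10626, 10848, 11505 and 12849 in shallow libraries (log2 fold 1.20, SE 0.16, adjusted p = 7.24e-05). vit-2 had 32461, 18814 and 21069.8 in deep libraries, against 13080.2, 12039, 10647, 11315 and 11797 in shallow libraries (log2 fold 1.02, SE 0.12, adjusted p = 4.61e-05). Both were higher in every deep library, with the deep N2 library highest. After the length adjustment 1 was higher and 4 lower of 9, and vit-2 and vit-6 stood at -0.18 and -0.03 (adjusted p = 0.194 and 0.877). Yolk, an adult product, was abundant in all 8 libraries, at a sum of 104656 to 188523 over the 6 genes in deep libraries, against 58834 to 85709.6 in shallow libraries. Markers of the early embryo, end-1, end-3, med-1 and pes-10, summed to 5.84 to 35.1 in deep libraries, against 4.92 to 32.9 in shallow libraries, and none of the 3 that could be tested passed. The list of zygotic embryo genes had 6 of 17 features higher and none lower (median 0.17), beside 34.3% higher and 28.2% lower over all features. Its sums were 6106, 5219 and 5025 in deep libraries, against 2930, 3232, 2927, 2440 and 2747 in shallow libraries. Within it, die-1 had a log2 fold of 3.69 (limma, adjusted p = 4.52e-07). After the length adjustment 4 of 17 were higher and 3 lower, beside 16.2% higher and 37.8% lower over all features.

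Ribosomal RNA features had the lowest median of the 43 lists, -4.04. All 21 rRNA features were lower in deep libraries, 18 of them with a log2 fold below -2, but the 21 had only 10 distinct sets of reads. rrn-3.1, a large-subunit rRNA, had 8482, 10239 and 4012 normalized counts in deep libraries, against 35658, 68052, 19591, 23253 and 30305 in shallow libraries (log2 fold -2.13, SE 0.32, adjusted p = 0.000181). rrn-1.1, a small-subunit rRNA, had 3291, 4712 and 1641 in deep libraries, against 15512, 32179.9, 8922, 9579 and 11824 in shallow libraries (log2 fold -2.18, SE 0.35, adjusted p = 0.000316). Y102A5D.10, annotated as rRNA and identical in its reads to others of its list, had 3.51, 1.97 and 0.344 in deep libraries, against 62.1, 112, 31.4, 32.8 and 25.5 in shallow libraries (log2 fold -4.04, SE 0.36, adjusted p = 5.62e-06). No deep library reached the lowest shallow library in any of the 3, and N2 28_6 was the highest throughout. As a share of all reads, rRNA features took 0.113%, 0.172% and 0.0634% in the deep libraries, against 0.482%, 0.976%, 0.302%, 0.348% and 0.428% in the shallow libraries. F31C3.14, an ncRNA feature, had 1079, 1216 and 569 in deep libraries, against 4928, 9043, 2919, 3331 and 3917 in shallow libraries (log2 fold -2.23, SE 0.27, adjusted p = 4.06e-05).

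Of 20 microRNA features, only 6 had a mean normalized count of at least 1, and 3 of those 6 were lower and none higher in deep libraries. mir-354 had 179.7, 173 and 145 in deep libraries, against 719, 782, 639.7, 635 and 597 in shallow libraries (log2 fold -2.0, SE 0.11, adjusted p = 4.50e-07), the only microRNA feature above a mean of 20. mir-260 had 3.51, 1.97 and 4.47 in deep libraries, against 9.13, 28.4, 28.2, 16.4 and 14.8 in shallow libraries (log2 fold -2.18, SE 0.45, adjusted p = 0.00161). Neither overlapped between the sets, and these are reads on the annotated microRNA gene, not mature microRNAs counted as such. Of 45 snoRNA features 10 were lower and 2 higher, of 58 snRNA features 2 were lower and 3 higher, and of 62 tRNA features 2 were lower and none higher. Over all features 28.2% were lower and 34.3% higher. Most of the snoRNA, snRNA and tRNA features were near the detection limit, with summed levels over 84 snoRNA features of 144, 127 and 131 in the deep libraries, against 259, 448, 171, 185 and 219 in the shallow libraries. The snRNA sum of the shallow N2 28_6 library, 1025, lay above the other 7 libraries, which held 122 to 243.

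Long noncoding features went both ways. Of 406 other ncRNA features 87 were higher and 57 lower, of 34 lincRNA and antisense features 9 were higher and 12 lower, and of 994 pseudogene features 277 were higher and 180 lower. Over all features 34.3% were higher and 28.2% lower. The pseudogene median of 0.22 turned to -0.39 under quantile normalization. rncs-1, a noncoding RNA known to rise in starved worms and to hold a long double-stranded helix, had 341, 41.8 and 27.1 normalized counts in deep libraries, against 2363, 3056, 596, 761 and 848 in shallow libraries (log2 fold -3.88, SE 0.28, adjusted p = 1.45e-06). It was lower in each deep than in each shallow library and, within both sets, higher in N2 than in the ADAR mutants. The heat-shocked libraries of the same sets had a log2 fold of -4.31 for rncs-1 (limma, adjusted p = 0.00201), with overlap. H36L18.2, a lincRNA or antisense feature, had 1099, 1299.9 and 825 in deep libraries, against 2512, 2850.2, 2897, 2868 and 2226 in shallow libraries (log2 fold -1.33, SE 0.15, adjusted p = 2.98e-05). K11D9.5, of the same class, had 348, 277 and 272 in deep libraries, against 9.13, 10.7, 21.9, 14.8 and 21.5 in shallow libraries (log2 fold 4.21, SE 0.29, adjusted p = 1.23e-06). Y41E3.460 had 54.8, 49.3 and 114 in deep libraries and no read in any shallow library.

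**Figure D4:**
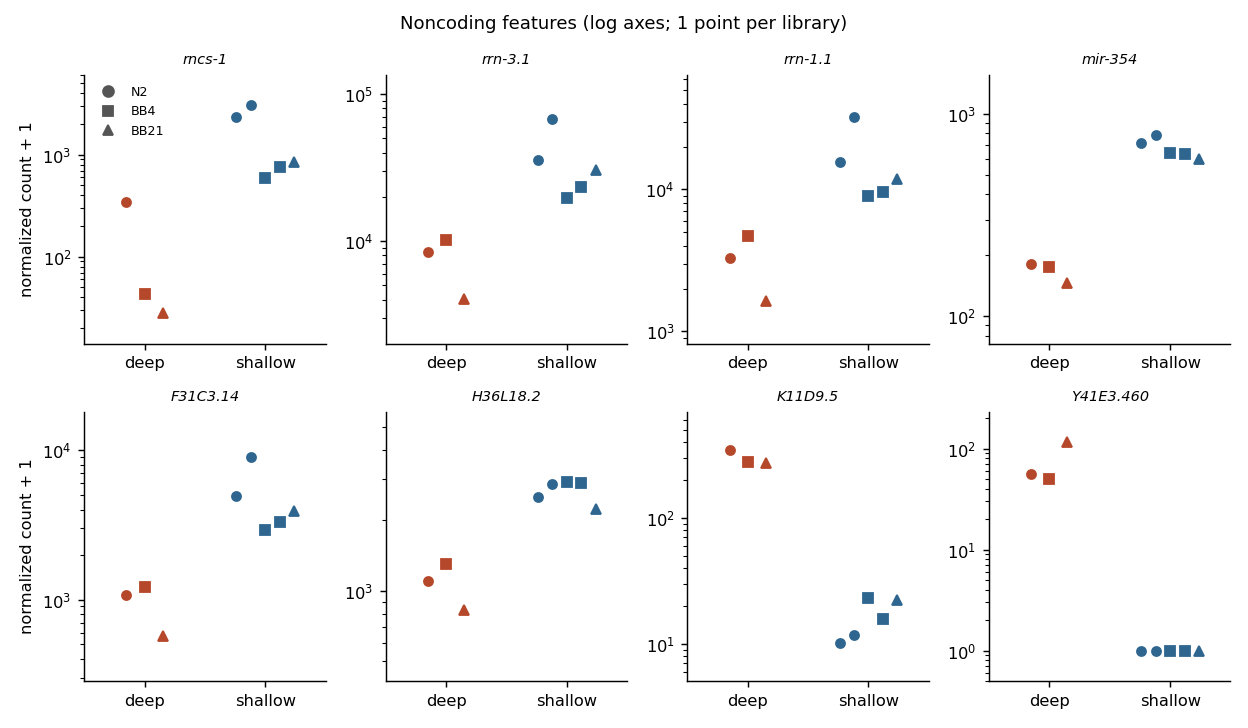
Normalized count + 1 (log y axes) of 8 noncoding features in the 3 deep and 5 shallow standard libraries (x axis), 1 point per library with the strain as its shape. rncs-1, rrn-3.1, rrn-1.1, mir-354, F31C3.14 and H36L18.2 are lower, and K11D9.5 and Y41E3.460 higher, in every deep library.

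The proteins of the small RNA pathways had 52 of 74 features higher and 8 lower, with a median of 0.67 and a median coding length of 2520 nt. smg-2, the helicase of nonsense-mediated decay, had 2694, 1801 and 2525 normalized counts in deep libraries, against 51.1, 78.2, 65.8, 32.8 and 45.6 in shallow libraries (log2 fold 5.46, SE 0.24, adjusted p = 2.79e-07), with 1463 nt of 3′UTR. alg-1, a microRNA Argonaute, had 970.0, 784 and 1035 in deep libraries, against 142, 181, 172, 166 and 213 in shallow libraries (log2 fold 2.40, SE 0.15, adjusted p = 8.61e-07). ppw-1, an Argonaute of germ line RNA interference, had 4657, 4178 and 4096 in deep libraries, against 2859, 2879, 2596, 2836 and 2556 in shallow libraries (log2 fold 0.66, SE 0.08, adjusted p = 4.49e-05). All 3 were higher in every deep library. prg-1, the Piwi protein that binds 21U-RNAs, had 3109, 2144 and 3170.1 in deep libraries, against 2184, 2422, 2107, 2032 and 2258 in shallow libraries (log2 fold 0.34, SE 0.13, adjusted p = 0.0367) and overlapped. Its call was lost without N2 12_7, N2 28_6, BB4 28_6, BB4 12_7, deep N2 or deep BB21, at an adjusted p of 0.0576 to 0.173, and its log2 fold was 0.21 without deep BB21. After the length adjustment the list had 13 higher and 43 lower of 72, with a median of -0.42, and smg-2 stayed higher (2.09, adjusted p = 2.53e-05).

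Short and abundant messages of general function were lower in deep libraries. Of 99 ribosomal protein features, 98 were lower and none higher, and all 99 lay below the shallow values in every deep library, with a median log2 fold of -1.49. They took 3.82%, 3.98% and 3.05% of reads in the deep libraries, against 9.20%, 8.95%, 8.92%, 8.78% and 8.75% in the shallow libraries. rps-21 had 1569, 1136 and 1372 normalized counts in deep libraries, against 7172, 7365, 6036, 6173 and 5625 in shallow libraries (log2 fold -2.24, SE 0.09, adjusted p = 2.68e-07). With the length adjustment 89 of 97 were lower and none higher, with a median of -0.69. Histone genes, most of whose messages lack a poly(A) tail, had 49 of 72 features lower and none higher (median -1.18), and reads are shared among their copies. Adjusted for length, 29 of 72 were lower and none higher (median -0.64), beside 37.8% lower and 16.2% higher over all features. his-72, an H3.3 gene, had 1078, 798 and 754 in deep libraries, against 2680.3, 2443, 2349, 2114 and 2175 in shallow libraries (log2 fold -1.42, SE 0.09, adjusted p = 9.97e-07). Mitochondrially encoded features were lower in 13 of 14 and higher in none (median -0.89, and -0.91 for the 12 with a coding length after the adjustment).

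Secreted peptides, digestive enzymes and the metallothionein gene mtl-2 were mostly lower as well. Transthyretin-related genes were lower in 51 of 60 features and higher in none, epidermal antimicrobial peptides lower in 13 of 17 and higher in 1, fungus-induced peptides lower in 17 of 32 and higher in 1, and intestinal proteases and digestive enzymes lower in 35 of 53 and higher in 1. nlp-27, an antimicrobial peptide of the epidermis, had 398, 344 and 266 normalized counts in deep libraries, against 1033, 1132, 927, 1057 and 1002 in shallow libraries (log2 fold -1.62, SE 0.12, adjusted p = 1.69e-06). mtl-2, an intestinal metallothionein, had 191, 159.7 and 172 in deep libraries, against 1258, 1091, 793, 842 and 734 in shallow libraries (log2 fold -2.38, SE 0.12, adjusted p = 3.64e-07). asp-1, an aspartyl protease of the intestine, had 13212, 11458 and 11414 in deep libraries, against 20456, 19335, 20345, 21643 and 19207 in shallow libraries (log2 fold -0.75, SE 0.10, adjusted p = 7.12e-05). None of the 3 overlapped. Adjusted for length, the fungus-induced peptides had a median of 0.06 with 11 higher and 6 lower, whereas the intestinal list still had 34 of 53 lower and none higher. On that scale the transthyretin-related genes had 30 lower and 3 higher of 59 (median -0.35), and the epidermal antimicrobial peptides 4 lower and 1 higher of 17 (median -0.20), against 37.8% lower over all features. Larger families split: C-type lectins had 41 higher and 40 lower of 200, F-box and MATH/BTB genes 47 higher and 77 lower of 421, P450, UGT and GST genes 23 higher and 51 lower of 196, and nuclear hormone receptors 97 higher and 24 lower of 311. Over all features, without the length adjustment, 34.3% were higher and 28.2% lower. The medians of the lectins and the nuclear hormone receptors, 0.22 and 0.24, turned to -0.24 and -0.32 under quantile normalization.

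Of 9 hsp-16 and hsp-70 heat-shock features in these unheated worms, 3 were higher and none lower, beside 34.3% higher and 28.2% lower over all features. hsp-70, a heat-inducible chaperone, had 1618, 1729 and 1473 normalized counts in deep libraries, against 354, 1162, 647, 414 and 460.3 in shallow libraries (log2 fold 1.56, SE 0.32, adjusted p = 0.00164), a difference that did not pass in the fit of all 16 libraries (adjusted p = 0.0656). It was higher in every deep library, and N2 28_6 was the highest of the shallow ones.

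**Figure D5:**
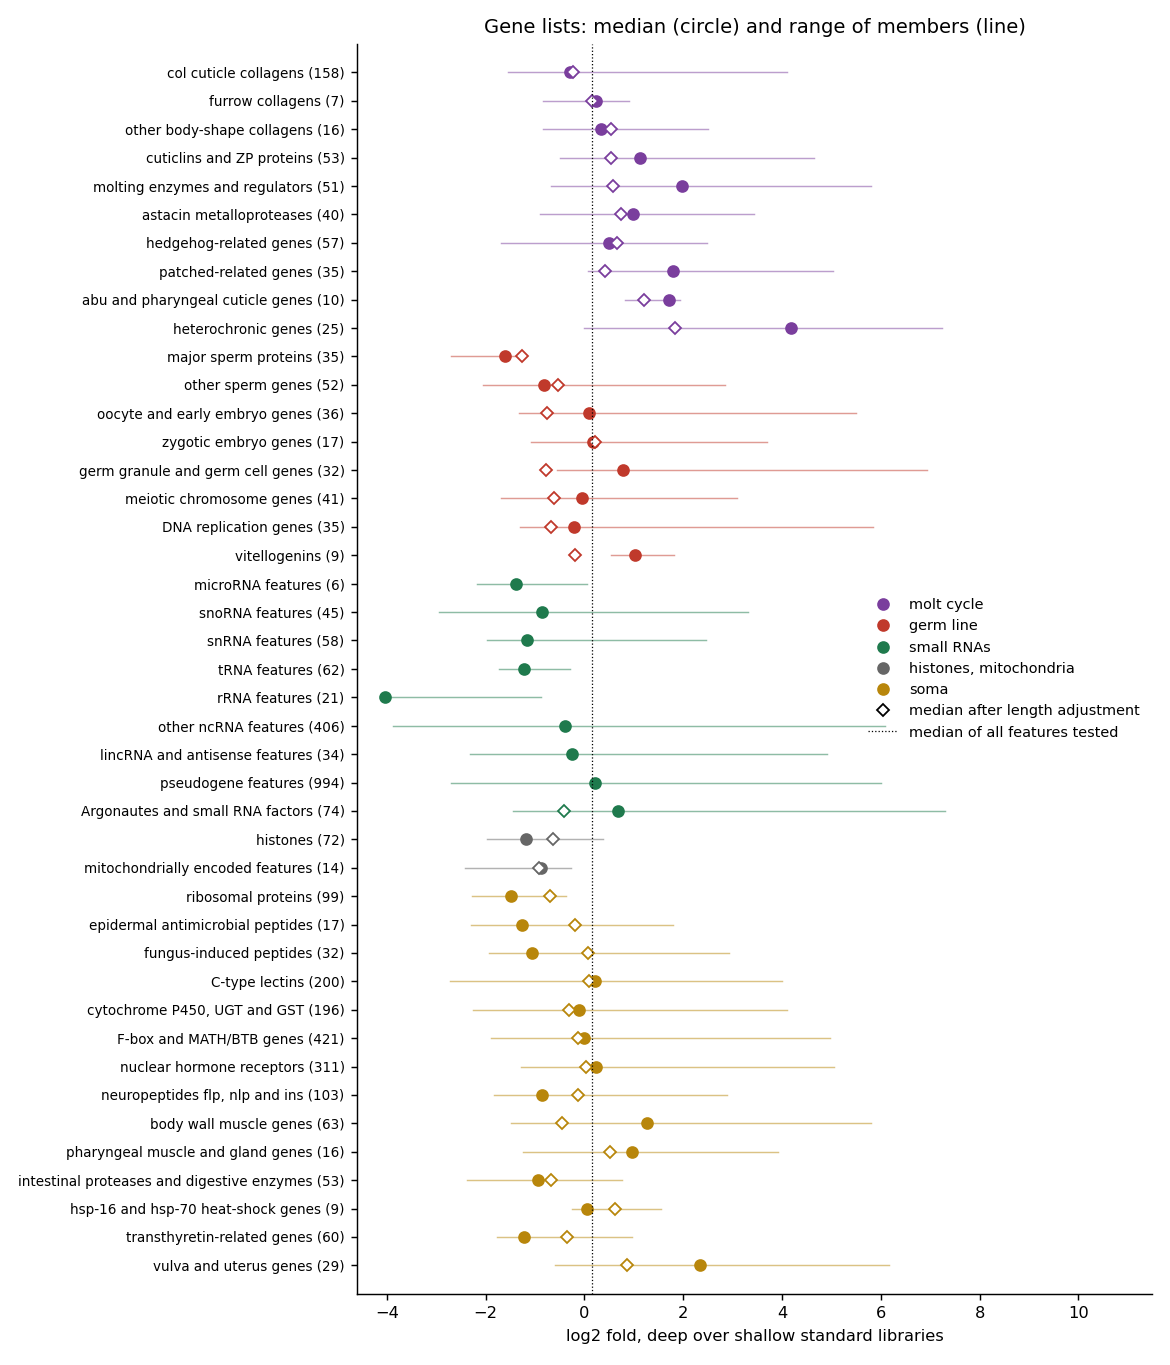
Log2 fold of deep over shallow standard libraries (x axis) for the 43 gene lists with members in the table (y axis, number of features tested in parentheses). Circles give the list median, lines the range of its members, open diamonds the median after the length adjustment, and the dotted line the median of all features, 0.15. Heterochronic genes have the highest median, 4.18, and rRNA features the lowest, -4.04.

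Among called features that averaged 20 or more normalized counts and did not overlap between the sets, Y67D8A.2, a gene of 735 nt, had 599, 402 and 563 normalized counts in deep libraries, against 5.48, 0, 0, 0 and 0 in shallow libraries (adjusted p = 9.23e-07). lam-1, the laminin beta chain of basement membranes (5370 nt), had 858, 499 and 1088 in deep libraries, against 0, 7.11, 6.27, 1.64 and 9.39 in shallow libraries (log2 fold 7.43, SE 0.69, adjusted p = 7.13e-06). gld-4, a cytoplasmic poly(A) polymerase with 1420 nt of 3′UTR, had 1869, 1623 and 1430.1 in deep libraries, against 3.65, 14.2, 6.27, 3.28 and 38.9 in shallow libraries (log2 fold 7.38, SE 0.65, adjusted p = 5.02e-06). epg-5, an autophagy gene of 7059 nt, had 574, 410.0 and 658 in deep libraries, against 0, 5.33, 4.7, 1.64 and 2.68 in shallow libraries (log2 fold 7.36, SE 0.56, adjusted p = 2.02e-06). Each of the 4 was far lower in every shallow library, although gld-4 reached 38.9 in BB21 12_7. All 4 stayed higher after the length adjustment, with lam-1, gld-4 and epg-5 at 4.69, 4.05 and 5.28 (limma, adjusted p at most 7.05e-05). At the other end, after rRNA and rncs-1, stood F58E6.7, F15E11.12 and F15E11.15. F15E11.15 had 296, 297 and 184 in deep libraries, against 4000.4, 2859, 1019, 978 and 2445 in shallow libraries (log2 fold -2.87, SE 0.33, adjusted p = 2.90e-05), and F15E11.12 had 89, 78.9 and 46 in deep libraries, against 1256, 833, 263, 261 and 772 in shallow libraries (log2 fold -2.94, SE 0.38, adjusted p = 6.35e-05). Both genes were lower in every deep library, and varied widely within the shallow set, with N2 12_7 highest and BB4 12_7 lowest. In the heat-shocked libraries neither difference passed (log2 fold -0.34 and -1.33, limma, adjusted p = 0.735 and 0.0518).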

How the data were processed

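Poly(A) RNA from whole worms was sequenced as single reads with TruSeq libraries. Per the study's methods, the authors trimmed and collapsed the reads, aligned them with Bowtie to WS220 gene transcripts with multiple alignments kept, and took read counts as expression levels. DESeq2 is named there for differential expression, and how the counts were normalized is not given in the sources used here. The deposited table holds normalized counts, which are signal values, for 26080 features. In each library every value was a whole multiple of the value of 1 read (100% of values within a tolerance of 0.001), and the recovered reads gave the depths. Of the features, 25343 were matched to RefSeq names, 300 to Ensembl names and 437 to neither, and 722 shared all their reads with another feature.

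Differences between the sets were tested with limma 3.58.1 (R 4.3.3) on log2(normalized count + 1) with genotype, N2 or ADAR mutant, as covariate, for features with a mean of at least 1 over the 8 libraries, so that a low feature could pass the filter through either set. Log2 folds are on that scale and understate the change of low features. Benjamini-Hochberg adjusted p-values were taken over all features and called under 0.05. Replicates are labelled as biological, and p-values measure the spread between these libraries. On simulated counts for 23280 features, with 200 changed, the test recovered 75% of the changed ones, and 1.96% of its calls were false. That simulation changed far fewer features than were called in the data and held no trend with length. Its rates therefore do not carry over to the calls given here. On the recovered reads, edgeR 4.0.16 called 7958 features higher and 6833 lower, and DESeq2 1.42.0 called 7534 higher and 6904 lower. Other alternatives were pseudocounts of 0.5 and 10, filters, quantile and TMM scaling, other covariates, thinning of the deep libraries, each shallow subset alone, 1 feature per gene, leaving out each library and, added after the data were seen, the length adjustment.

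Genes named are the 10 highest and 10 lowest log2 folds among called, non-overlapping features that averaged 20 or more, the 3 most abundant and the 2 lowest adjusted p of each list, and cell type markers, of which the text gives a choice. adr-2 was named for the strain check. The comparison, its lists and its members were chosen with earlier results of these data known.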

Additional observations from a re-analysis of the deposited data

Results flagged for a closer look

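Among the 5 shallow libraries, 80 genes and 43 summed lists were examined for a single library far from the other 4, by a gap of more than 0.71 of the whole range. Chance alone marks about 1 in 20 groups, and 9 of these 123 were marked. Y67D8A.2 stood at 5.48 normalized counts in N2 12_7 and at 0 in the other shallow libraries. dpy-7 was at 124 in BB4 28_6, with the next library at 37.7. grd-3 was at 1295 in N2 28_6, with the next at 1455. pgl-1 was at 5483 in N2 12_7, with the next at 4593. rab-3 was at 44.4 in N2 28_6, with the next at 67.4. The patched-related genes summed to 5770 in BB4 12_7, with the next at 6108. The nuclear hormone receptors summed to 33642 in BB21 12_7, with the next at 38178. The neuropeptides summed to 28404 in N2 28_6, with the next at 26454. The transthyretin-related genes summed to 32150.1 in BB21 12_7, with the next at 37608. Their causes were not tested.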

How the results depend on the processing

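The counts of features higher (7994) and lower (6567) stayed within 1.5 times under every alternative run except the length adjustment, which gave 3418 higher, and 937 with a log2 fold over 2 in place of 2769. Taking 1 feature per gene gave 1515 with a log2 fold over 2. The 170 with a log2 fold under -2 became 78 with a pseudocount of 10, 858 with quantile normalization, 348 by edgeR, 308 by DESeq2, 257 with thinned deep libraries and 273 against 28_6 alone. Leaving out 1 library gave 6490 to 8055 higher, 5639 to 6675 lower, 2507 to 2984 over 2 and 124 to 261 under -2, the highest without BB21 12_7. In heat-shocked libraries it gave 4379 to 7205 higher, 3238 to 5736 lower, 2720 to 3769 over 2 and 671 to 1223 under -2, with the 4379 and the 3238 without deep N2. The share of calls that were higher was 54.9%, but 48.5% with 1 feature per gene, 42.0% with quantile normalization and 30.1% with the length adjustment. The causes of these shifts were not tested.

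The length adjustment turned the medians of germ granule genes to -0.78, small RNA factors to -0.42, body wall muscle genes to -0.46, oocyte and early embryo genes to -0.76, vitellogenins to -0.18 and fungus-induced peptides to 0.065. It also turned mlt-7 (-0.032), ptc-1 (-1.23), lin-66 (-1.08), spe-9 (-0.19), cbd-1 (-1.32), oma-1 (-0.52), gld-1 (-0.99), gld-2 (-0.85), vit-2 (-0.18), vit-6 (-0.028), prg-1 (-0.57), ppw-1 (-0.15), unc-54 (-0.74) and myo-2 (-1.10). Quantile normalization turned pseudogenes to -0.39, C-type lectins to -0.24, nuclear hormone receptors to -0.32 and pgl-1 to 0.18. Without a filter the lincRNA and antisense median was 0.27. sqt-1, at -0.28 to 0.70 with 1 library left out, stood at -0.24 without N2 12_7, -0.28 without deep N2 and -0.63 against 28_6 alone, and rol-6 at -0.59 against 28_6 alone. No paired analysis was possible because no strain carries the same replicate number in both sets. The shallow depth limits low features, since 1 read is worth 1.34 to 1.83 normalized counts there.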
